A study of Mus musculus with 8 samples.

Results

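The genes described here encode the proteins that fold, hold together and steer chromosomes through mitosis. They comprise 8 condensin genes, 5 genes of the cohesin ring, 8 genes that load, acetylate, release or protect cohesin, 2 core SMC5/6 genes, 2 type II topoisomerases, 3 genes of the chromosome surface and the chromokinesins, and the 4 genes of the chromosomal passenger complex. These 32 genes were listed by name, with earlier results of these data known, so the list is not independent of their values. All 32 were found among the 55291 symbols of the count table, and all 32 were among the 26820 genes tested. RNA was sequenced from ventricular tissue of C57BL/6N mouse embryos at E10.5, with 4 libraries from Pkn2 cKO embryos and 4 from controls. Every embryo was homozygous for a floxed Pkn2 allele (Pkn2 fl/fl). The cKO embryos also carried XMLC2-Cre, a Cre line active in cardiomyocytes, and the controls were littermates without Cre. The deletion was therefore limited to cardiomyocytes, while the RNA came from all cells of the ventricle, so that a lower level in fewer cells and a lower level in every cell cannot be told apart. The question was whether single genes of chromosome structure already differed at E10.5, the stage the study chose because the hearts still looked alike. From ranked lists, the study reported chromosome condensation as the only gene set lower in RNA, protein and phosphoprotein data. It also reported fewer cardiomyocyte nuclei making DNA at E10.5. A threshold for single genes is an unlike measure and does not test those results. Libraries held between 47559845 and 56660938 counts, and the least abundant reading among these 32 genes was 1044 counts. For genes with the closest replicates, such as Esco1 in the cKO and Smc5 in the controls, the spread between libraries was no wider than counting error alone would give.

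The targeted gene followed the labels. Pkn2, which encodes protein kinase N2, had 83.1, 77.6, 79.6 and 84.3 CPM (counts scaled to the size of the library) in the cKO libraries and 132.7, 139.4, 152.2 and 152.7 CPM in the control libraries. The groups did not overlap, and the level fell to 56.3% of the control level (log2 fold change −0.83, SE 0.060, edgeR adjusted p = 7.67e-06).

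Chromosomes are compacted for division by condensin, a ring-shaped complex built on a pair of SMC ATPases that extrudes loops of DNA. Cohesin, a related ring, forms loops in interphase and holds sister chromatids together from replication until anaphase, and the SMC5/6 complex acts in DNA repair and in the resolution of joined chromatids. Topoisomerase II passes one DNA duplex through another and so untangles the sisters, while the chromosomal passenger complex carries the kinase Aurora B to chromosome arms, centromeres and the midzone. The ventricular wall of the mid-gestation embryo grows by division of its cardiomyocytes, and many of these genes are transcribed mainly in cells that are preparing to divide.

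None of the 32 genes passed the threshold of an adjusted p of 0.05 in edgeR's quasi-likelihood test, against 0.858% of all genes tested. The smallest adjusted p was 0.199, for Esco2. At an unadjusted p under 0.05 there were 5 of the 32 genes (Esco2, Rad21, Cdca8, Smc4 and Sgo2a), all lower in the cKO, where 12.8% of all genes tested reached that level. The groups did not overlap for 2 of the 32 genes, Esco2 and Rad21, and for 6.91% of all genes tested. In TPM the groups overlapped for both, since the highest cKO library was above the lowest control for Esco2 (17.7 against 17.4 TPM) and for Rad21 (127.7 against 123.8 TPM). These shares were near those of the transcriptome as a whole for the unadjusted p and for the overlap.

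The differences were small and leaned toward lower levels in the cKO. Log2 fold changes ran from −0.31 for Esco2 to 0.06 for Ncapd3, with 23 genes lower, 9 higher and a median of −0.056, beside a median of −0.0008 over all genes tested. Abundant genes as a class leaned the same way: of the 9858 genes with a mean of at least 10 CPM, 59.2% were lower in the cKO, with a median of −0.023, while the share among the 32 genes was 71.9%. Every 95% interval lay between −0.53 and 0.17, and for 31 of the genes no interval reached below −0.33. The lower bound was 69.1% of the control level for Esco2 and at least 79.7% for each of the other genes. A p that misses the threshold does not show that the levels were alike.

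**Figure D1:**
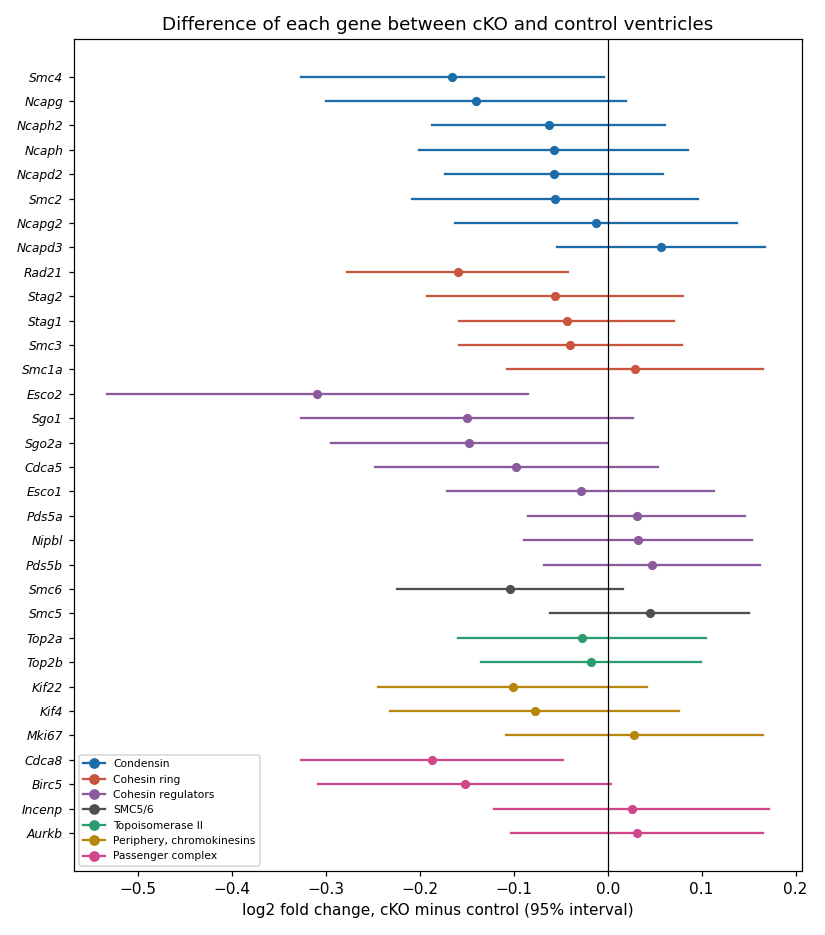
Log2 fold change of each of the 32 genes, cKO minus control, with its 95% interval from the edgeR fit over 4 cKO and 4 control libraries; colours mark the complexes and the vertical line marks no difference. Esco2 lies farthest to the left at −0.31, and the intervals of 27 genes cross 0.

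Condensin had 7 of its 8 genes lower and none called, with a median log2 fold change of −0.057. Smc4, one of the 2 SMC ATPases of condensin, had 240.1, 262.7, 253.8 and 204.3 CPM in the cKO and 252.5, 254.8, 294.6 and 275.8 CPM in the controls. The fourth cKO library was the lowest of all, and cKO libraries 2 and 3 lay within the control range. Its log2 fold change was −0.17 (SE 0.076, adjusted p = 0.377, edgeR), and −0.09 without the fourth cKO library, which took the condensin median to −0.02. Its partner Smc2 differed less, with 182.1 ± 19.2 CPM in the cKO and 189.3 ± 10.6 CPM in the controls (SD, n = 4) and a log2 fold change of −0.06 (95% interval −0.21 to 0.10).

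The subunits of condensin I, which reaches chromosomes after the nuclear envelope breaks down, were all 3 lower: Ncapg at −0.14, Ncaph at −0.06 and Ncapd2 at −0.06 on the log2 scale. Without the fourth cKO library they stood at −0.08, −0.01 and −0.03. Ncapg, a HEAT-repeat subunit, had 59.4, 63.5, 58.0 and 50.9 CPM in the cKO and 56.6, 62.9, 69.7 and 66.4 CPM in the controls (adjusted p = 0.471). The first control was lower than 3 of the cKO libraries, so the groups overlapped. The subunits of condensin II, which is nuclear throughout the cycle and starts compaction in prophase, had log2 fold changes of −0.01 for Ncapg2, 0.06 for Ncapd3 and −0.06 for Ncaph2. Ncapd3 was the gene with the highest log2 fold change of the 32, at 65.4 ± 1.83 CPM in the cKO and 62.8 ± 1.75 CPM in the controls (95% interval −0.05 to 0.17). The strand setting of the counting is not given in the sources used here, so the counts of Ncapg and Ncaph2 may hold reads of genes that overlap them on the opposite strand, Lcorl at 5.99 TPM and Sco2 and Tymp at 3.67 and 1.595 TPM.

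The cohesin ring had 4 of its 5 genes lower and none called, with a median of −0.044. Rad21, the kleisin that closes the ring and is cut by separase at anaphase (ENSMUSG00000022314, chr15:51962240-51991747, minus strand, GRCm38), had 277.3, 274.6, 272.6 and 258.2 CPM in the cKO and 280.7, 307.3, 305.0 and 316.2 CPM in the controls. Every cKO library was below every control, although the highest cKO and the lowest control libraries were close. The log2 fold change was −0.16 (SE 0.056, 95% interval −0.28 to −0.04, adjusted p = 0.21, edgeR), or 89.5% of the control level.

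The ATPases of the ring had values nearer to 0 than Rad21, and the difference from Rad21 was not tested. Smc3 had a log2 fold change of −0.04 and Smc1a one of 0.03, with intervals of −0.16 to 0.08 and −0.11 to 0.17. The subunits that carry the ring onto chromatin, Stag1 and Stag2, stood at −0.04 and −0.06. Smc1a and Stag2 are X-linked, as is Kif4 below. Xist, the RNA of the inactive X chromosome, was at 0.080 to 2.24 CPM in all 8 libraries. The 4 Y-linked genes Ddx3y, Eif2s3y, Kdm5d and Uty summed to 172.4 to 194.8 CPM in the cKO and 134.7 to 184.6 CPM in the controls. All 4 were higher in the cKO, and 3 reached an unadjusted p under 0.05 (edgeR), beside 12.8% of all genes tested. None of the 4 was called. With log2 Xist CPM as a covariate none of the 32 genes was called. Xist was low and the Y-linked genes were present in every library, so this covariate could not separate the libraries by sex.

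The cohesin regulators gave the widest range, with 5 of 8 genes lower, none called and a median of −0.063. Esco2 acetylates Smc3 during replication and thereby locks sister chromatids together (ENSMUSG00000022034, chr14:65819038-65833994, minus strand, GRCm38). It had 24.3, 28.5, 28.5 and 18.6 CPM in the cKO and 30.7, 30.9, 32.6 and 29.4 CPM in the controls. All cKO libraries were below all controls, libraries 2 and 3 by less than 1 CPM and library 4 by the widest margin. The log2 fold change was −0.31 (SE 0.11, 95% interval −0.53 to −0.09, adjusted p = 0.199, edgeR), or 80.7% of the control level, and −0.18 without the fourth cKO library. Esco1, the acetyltransferase that acts outside replication, stood at 24.3 ± 0.64 CPM in the cKO and 24.7 ± 1.57 CPM in the controls, with a log2 fold change of −0.03.

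Sgo1 and Sgo2a encode shugoshins, which guard centromeric cohesin from early removal, and had equal log2 fold changes of −0.15. Without the fourth cKO library Sgo1 stood at −0.10 and Sgo2a at −0.09, and over all libraries left out in turn Sgo1 ranged from −0.23 to −0.09. Sgo2a had 51.2, 59.5, 53.0 and 46.8 CPM in the cKO and 56.1, 57.2, 61.9 and 57.8 CPM in the controls (SE 0.069, adjusted p = 0.387, edgeR). Here 3 of the 4 cKO libraries were below every control, and the second was above 3 of the controls. Sgo1 had a like arrangement, with 27.0, 36.3, 31.97 and 28.1 CPM in the cKO and 33.5, 36.0, 34.3 and 32.97 CPM in the controls, the second cKO library being the highest of all 8. Cdca5, which encodes sororin, the factor that stabilises cohesin on replicated DNA, stood at −0.10 (95% interval −0.25 to 0.05). The loader Nipbl and the release and maintenance factors Pds5a and Pds5b were at 0.03, 0.03 and 0.05, with no interval reaching past −0.09 or 0.17.

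The core genes of the SMC5/6 complex went in opposite directions without either being called. Smc6 had 122.4, 119.6, 116.5 and 108.7 CPM in the cKO and 121.3, 120.0, 131.5 and 129.3 CPM in the controls, a log2 fold change of −0.10 (adjusted p = 0.485, edgeR). Smc5 had 95.1, 98.1, 93.1 and 93.5 CPM in the cKO and 91.1, 91.5, 92.4 and 93.2 CPM in the controls, a log2 fold change of 0.04 (adjusted p = 0.799). For Smc5, 3 of the cKO libraries were above every control, and for Smc6, 3 of the cKO libraries were below every control.

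Neither topoisomerase II gene differed by more than its error. Top2a, the form made in dividing cells, stood at 587.4 ± 43.5 CPM in the cKO and 598.6 ± 24.8 CPM in the controls (log2 fold change −0.03, 95% interval −0.16 to 0.10). Top2b, the form that cardiomyocytes keep after they leave the cycle, stood at 223.1 ± 6.5 and 225.9 ± 11.8 CPM (log2 fold change −0.02, 95% interval −0.14 to 0.10). On the log2(TPM + 1) scale both signs turned, to 0.0058 and 0.018.

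Among the genes of the chromosome surface and the chromokinesins, Mki67 encodes Ki-67, the surfactant-like coat of mitotic chromosomes and the usual marker of cycling cells. It had 683.9, 699.5, 607.1 and 581.1 CPM in the cKO and 619.2, 622.4, 628.6 and 651.3 CPM in the controls. The cKO libraries split, with 2 above and 2 below every control, and the log2 fold change was 0.03 (95% interval −0.11 to 0.17). Kif4 and Kif22, motors that bind chromosome arms, stood at −0.08 and −0.10 with adjusted p of 0.748 and 0.601. Kif4 shares 832 bases of its span with Pdzd11 on the opposite strand, which was at 68.3 TPM where Kif4 itself was at 34.8 ± 0.52 TPM in the controls, so its counts may hold reads of both. The other genes that overlap one of the 32 on the opposite strand were at 5.39 TPM or less (beside Smc1a, Top2a, Top2b and Kif22).

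Of the 4 genes of the chromosomal passenger complex 2 were lower and 2 higher, none was called, and the difference between them was not tested. Its 2 lower genes, Cdca8 and Birc5, encode borealin and survivin, which form the module that binds centromeres, while Incenp, the scaffold, and Aurkb, the kinase, had log2 fold changes of 0.03 each. Cdca8 (ENSMUSG00000028873, chr4:124918465-124936917, minus strand, GRCm38) had 98.1, 116.4, 111.4 and 97.9 CPM in the cKO and 122.7, 114.9, 117.0 and 127.9 CPM in the controls. Of the cKO libraries 3 were below every control, and the second exceeded the lowest control. The log2 fold change was −0.19 (SE 0.066, 95% interval −0.33 to −0.05, adjusted p = 0.215, edgeR), or 87.8% of the control level. Birc5 stood at 107.9 ± 10.9 CPM in the cKO and 119.9 ± 8.89 CPM in the controls (log2 fold change −0.15, adjusted p = 0.407, edgeR). Aurkb stood at 60.8 ± 3.58 and 59.5 ± 3.94 CPM, with a 95% interval of −0.10 to 0.17. Without the third control library Aurkb and Incenp turned negative, to −0.0088 and −0.011.

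**Figure D2:**
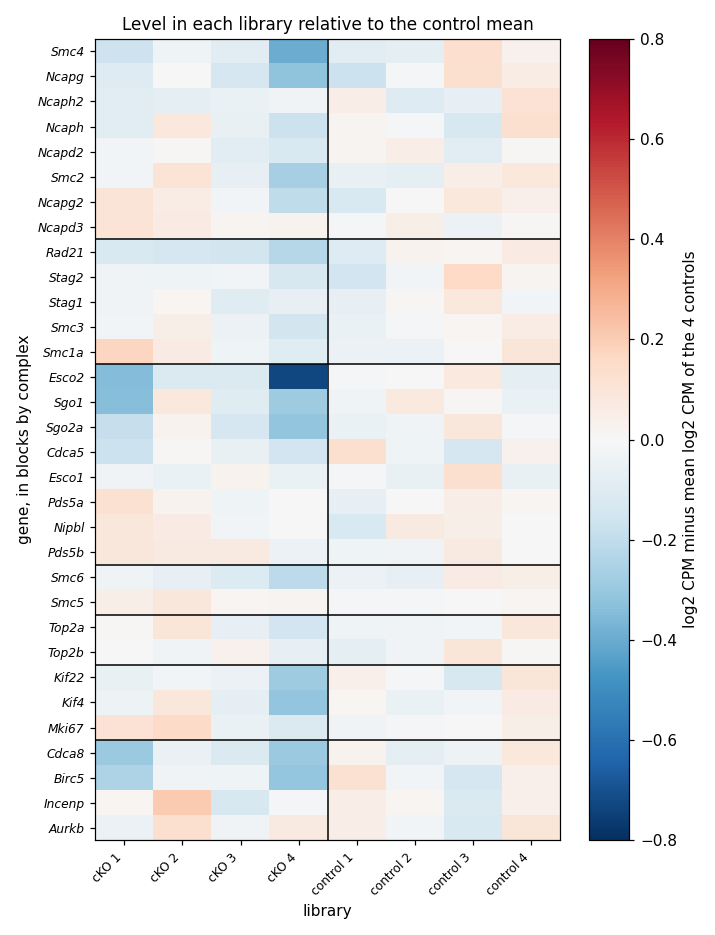
Level of each gene (rows, in blocks by complex) in each library (columns) as log2 CPM minus the mean log2 CPM of the 4 controls; blue is lower and red higher. The column of the fourth cKO library is the bluest, holding the lowest of the 8 values for 19 of the 32 genes, and its Esco2 cell is the darkest.

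The cKO libraries were not alike. The fourth cKO library held the lowest of the 8 readings for 19 of the 32 genes, or 59.4%, against 24.1% of all genes with a mean of at least 10 CPM. Without it none of the 32 genes was called, 17 of 32 were lower, and the median was −0.013 in place of −0.056, with −0.13 for Rad21, −0.14 for Cdca8, −0.09 for Birc5, −0.06 for Smc6 and −0.04 for Kif22. In that library the erythroid markers were at their highest, with a mean of 1.07 above the control mean on the log2 scale. The third control library stood nearly as high. Summed erythroid levels reached 4909 CPM in the cKO and 4749 CPM in the controls. On the same log2 scale the mean level of the 32 genes was −0.17 in the fourth cKO library and 0.01 in the third control. The epicardial markers were also at their highest in the fourth cKO library, with 0.31. Neither the erythroid nor the epicardial list had any of its 10 genes called. Of the 10 endothelial and endocardial markers 6 were called higher in the cKO, beside 0.858% of all genes tested. Their mean level was 0.54 in both the fourth and the first cKO library, above the 0.23 and 0.20 of the other cKO libraries. The fourth library was the highest for 6 of the 10. The part of these cells in the readings of the fourth library was not tested.

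The genes were also read in 2 classes. The 18 proliferation-linked genes are those known to be transcribed mainly in dividing cells (Smc2, Smc4, Ncapd2, Ncapg, Ncaph, Ncapg2, Esco2, Cdca5, Sgo1, Sgo2a, Top2a, Mki67, Kif4, Kif22 and the 4 passenger genes). The 12 broadly expressed genes are also used by resting cells (the 5 ring genes, Nipbl, Pds5a, Pds5b, Esco1, Smc5, Smc6 and Top2b), and Ncapd3 and Ncaph2 were put in neither class.

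In the proliferation-linked class 15 of 18 genes were lower, with a median of −0.088, and in the broadly expressed class 7 of 12, with a median of −0.023. The mean level of the proliferation-linked class, relative to the control mean on the log2 scale, was −0.10, 0.05, −0.08 and −0.24 in the cKO libraries and −0.01, −0.02, −0.02 and 0.05 in the controls. Library 2 of the cKO lay at the top of the control range, libraries 1 and 3 below it, and library 4 farthest below. For the broadly expressed class the readings were 0.02, 0.01, −0.03 and −0.08 in the cKO and −0.07, −0.02, 0.06 and 0.02 in the controls, so the groups covered nearly the same range. Without the fourth cKO library the medians were −0.033 and 0.004, with limma on log2(TPM + 1) they were −0.054 and 0.006, and without the third control the median of the broadly expressed class was 0.017, so its sign was not stable. The difference between the classes was not tested.

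The spread between cKO libraries was wider for the proliferation-linked class. The SD of log2 CPM was larger in the cKO than in the controls for 16 of its 18 genes, with a median SD of 0.135 against 0.079, and for 6 of the 12 broadly expressed genes, with 0.051 against 0.067. Among all genes with a mean of at least 10 CPM it was larger in the cKO for 65.1%. The same libraries held the ends of the range from gene to gene: within the cKO, the fourth was the lowest for 14 of the 18 proliferation-linked genes and the second the highest for 16 of 18. The share of all genes with these ends within the cKO was not computed. Genes read in the same libraries are not independent, so these counts can repeat a difference between single libraries.

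**Figure D3:**
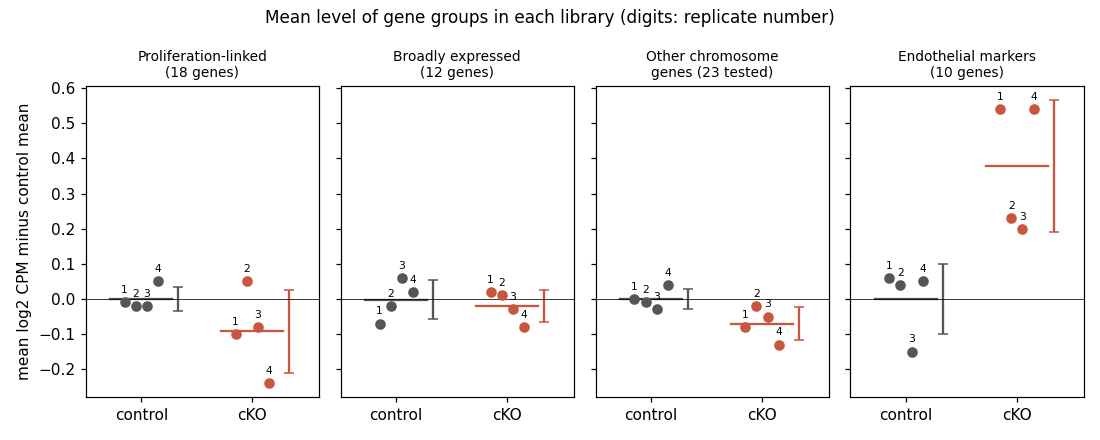
Mean log2 CPM of 4 gene groups in each library, relative to the control mean; dots are libraries with their replicate number, horizontal lines are group means and bars are SD (n = 4). The cKO libraries run from −0.24 to 0.05 for the proliferation-linked genes, from −0.08 to 0.02 for the broadly expressed genes, and lie above all controls for the endothelial markers.

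Markers of other cells of the ventricle were read beside these genes, and of the lists the endothelial one had the most genes called. All 10 endothelial and endocardial markers were higher in the cKO and 6 passed the test, beside 0.858% of all genes tested. Their summed levels were 1579 to 1961 CPM in the cKO and 1236 to 1442 CPM in the controls. Of the 10 macrophage markers 9 were higher and 2 passed, with summed levels of 15.9 to 43.2 CPM against 12.4 to 18.2 CPM that overlapped. Their median log2 fold change was 1.78, and 9 reached an unadjusted p under 0.05 (edgeR), beside 12.8% of all genes tested. Of the 10 cardiomyocyte markers none passed in either direction, and their summed levels, 37060 to 40410 CPM in the cKO and 36800 to 40960 CPM in the controls, overlapped. Of the cushion mesenchyme markers 1 of 10 passed (Vcan, higher), and of the epicardial, erythroid and hepatic markers none did, with Alb and Serpina1a below the filter on counts. Of the 8 hepatic and yolk sac markers tested 7 were lower, with a median of −2.25, and 5 reached an unadjusted p under 0.05 (edgeR). The first control library was the highest for 7 of these 8. The part of these cell types in the levels of the 32 genes was not tested.

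Compared per length of transcript (TPM), the transcripts of the 32 genes stood at very unequal levels, also within a complex. In the controls the most abundant of the 32 was Top2a at 202.5 ± 7.93 TPM, followed by Birc5 at 172.5 ± 11.7, Rad21 at 135.1 ± 8.17, Cdca8 at 130.1 ± 4.23 and Smc4 at 112.0 ± 7.77 TPM. The neighbours Rad21 and Cdca8 did not differ beyond their spread, nor did Smc4 and Mki67 (110.6 ± 2.91 TPM). At the low end stood Esco2 at 18.4 ± 0.98, Sgo1 at 16.6 ± 1.14 and Esco1 at 10.03 ± 0.58 TPM, the genes of 2 acetyltransferases and a shugoshin. Within condensin, Smc4, Ncaph2 and Ncapd2 stood highest, the latter at 102.3 and 100.2 TPM, Smc2 was at 62.0 TPM, and the condensin II subunits Ncapd3 and Ncapg2 were lowest at 20.9 and 19.6 TPM.

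**Figure D4:**
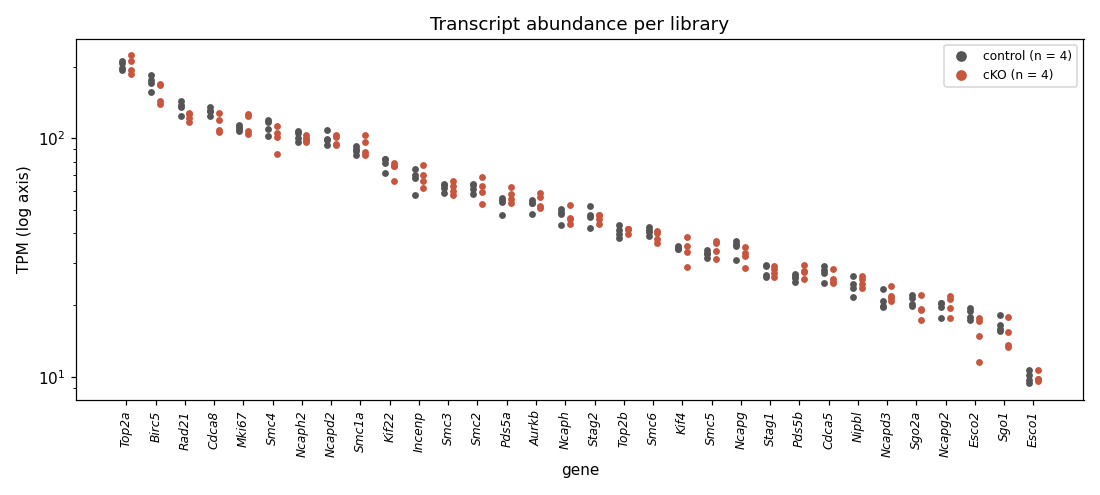
Transcript abundance (TPM, log axis) of the 32 genes in each library, ordered by the mean over all 8 libraries; grey dots are controls and red dots cKO. Levels span from 10.03 TPM for Esco1 to 202.5 TPM for Top2a as control means, and the colours overlap for most genes.

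Ratios between related genes within a library cancel any factor that scales both alike. Of 13 ratios of TPM computed, 3 did not overlap between the groups, in TPM as in CPM, and these are given as descriptions without a test. The pairs were set by hand, and the share without overlap among other pairs of genes was not computed. Whether 3 of 13 exceeds that share is therefore not known. None of the genes in these ratios was called, and Cdca8 and Aurkb had the lowest and the highest log2 fold change of the passenger complex. Cdca8 to Aurkb was 2.05, 2.17, 2.34 and 1.91 in the cKO and 2.45, 2.43, 2.59 and 2.44 in the controls, every cKO library having less borealin transcript for each unit of Aurora B transcript. Ncapg to Ncapg2, the matching subunits of condensin I and condensin II, was 1.52, 1.65, 1.65 and 1.61 in the cKO and 1.74, 1.75, 1.81 and 1.79 in the controls. Smc6 to Smc5 was 1.12, 1.08, 1.12 and 1.17 against 1.19, 1.28, 1.25 and 1.24. All 3 ratios were lower in every cKO library than in every control.

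The other ratios overlapped. Top2a to Top2b, the dividing-cell form to the broadly expressed form, was 4.94 ± 0.34 in the cKO and 4.98 ± 0.30 in the controls, and Stag2 to Stag1 was 1.67 ± 0.062 and 1.68 ± 0.089. Esco2 to Esco1 was 1.52, 1.85, 1.61 and 1.17 in the cKO and 1.83, 1.85, 1.82 and 1.85 in the controls, so the second cKO library reached the control level while the others did not. For Ncapd2 to Ncapd3 and for Esco2 to Esco1 the groups overlapped in TPM and not in CPM.

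**Figure D5:**
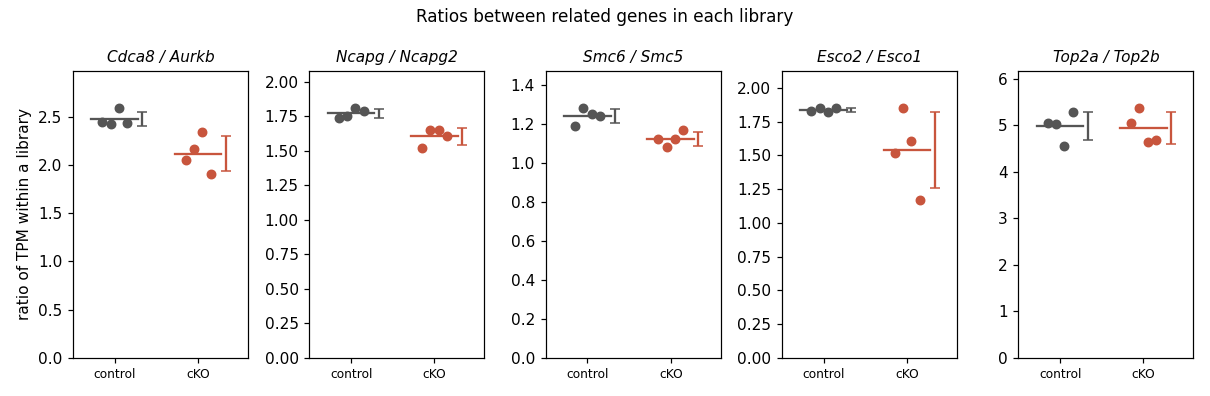
Ratio of TPM between related genes in each library for 5 of the 13 ratios computed, with axes from 0; dots are libraries, horizontal lines are means and bars are SD (n = 4). The control and cKO dots do not overlap in the first 3 panels, meet at 1.85 in the fourth and cover the same range in the fifth.

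Further genes of the same processes, from a list of 24, include separase and securin, the cohesin release and loading factors, the non-SMC subunits of SMC5/6, mitotic kinases and phosphatase subunits. Of the 23 that were tested (Sgo2b was below the filter on counts) none was called, 17 were lower, where 59.2% of genes with a mean of at least 10 CPM were lower, and the median was −0.082. An unadjusted p under 0.05 was reached by 6 of the 23, all lower, beside 12.8% of all genes tested. In CPM the groups did not overlap for 4 of the 23, beside 6.91% of all genes tested. Nsmce4a, a kleisin subunit of the SMC5/6 complex, had 72.4, 80.7, 84.7 and 74.3 CPM in the cKO and 94.0, 85.0, 90.9 and 91.0 CPM in the controls (log2 fold change −0.21, SE 0.061, adjusted p = 0.126, edgeR). Ppp2r5a, a regulatory subunit of protein phosphatase 2A, had 118.8, 122.1, 124.1 and 123.5 CPM in the cKO and 132.5, 132.5, 131.9 and 144.3 CPM in the controls (log2 fold change −0.15, SE 0.053, adjusted p = 0.223, edgeR). For both, all cKO libraries were below all controls, and for Nsmce4a the highest cKO library came within 1 CPM of the lowest control. The other 2 without overlap, named after their values were seen, were Slf1, a partner of SMC5/6 in DNA repair, at −0.20 (adjusted p = 0.227), and Ppp1cc, a catalytic subunit of protein phosphatase 1, at −0.14 (adjusted p = 0.30). In TPM the groups overlapped for Ppp1cc, with 184.7 TPM in the third cKO library and 176.2 TPM in the lowest control. For Nsmce4a, Ppp2r5a and Slf1 they did not overlap in TPM. The 5 meiotic paralogs of these complexes were tested and none was called. Of them Rec8, the meiotic kleisin, was the most abundant, at 24.5 ± 3.47 CPM in the cKO and 25.1 ± 3.94 CPM in the controls.

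Genes transcribed toward mitosis often carry a CCAAT box, bound by NF-Y, and a cell cycle homology region (CHR), the letters TTTGAA, bound by the MuvB complexes. Promoters of 24 of the 32 genes were found in the RefSeq table on GRCm38.p6, taken as the 250 bases before the transcription start. Those of Smc4, Rad21, Stag2, Nipbl, Esco1, Esco2, Aurkb and Incenp were not in it. Searched on both strands, CCAAT was present in 12 of the 24 promoters (50.0%) and in 35.4% of all 20968 promoters, and TTTGAA in 10 (41.7%) and in 15.4%. Both were present in 7 of the 24 (29.2%), namely Smc2, Ncapd2, Ncapg, Pds5b, Top2a, Mki67 and Kif22, and in 5.49% of all promoters. An E2F-type motif, TTTGGCGC or TTTCGCGC, was present in 2 (Ncapd2 and Pds5a) and in 0.782% of all promoters. TTTGAA was found in 8 of the 14 proliferation-linked promoters and in 2 of the 8 broadly expressed ones, Pds5b and Smc6. CCAAT differed less between the classes, with 8 of 14 (57.1%) and 4 of 8 (50%), and the E2F-type motif was in 1 promoter of each class. A match describes letters in the window and does not show a bound site.

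The promoters of 3 genes show the range: Cdca8, the gene with the lowest p in the passenger complex, with 3 CCAAT boxes and no TTTGAA, Ncapg, a condensin I gene with both motifs, and Smc3, a broadly expressed ring gene with neither. Matches were counted on each strand, overlapping ones included. Capitals mark the motifs, and ATTGG is CCAAT read on the other strand. The windows are chr4:124936918-124937167 on the minus strand, chr5:45669675-45669924 on the plus strand and chr19:53600146-53600395 on the plus strand (GRCm38.p6).
Cdca8: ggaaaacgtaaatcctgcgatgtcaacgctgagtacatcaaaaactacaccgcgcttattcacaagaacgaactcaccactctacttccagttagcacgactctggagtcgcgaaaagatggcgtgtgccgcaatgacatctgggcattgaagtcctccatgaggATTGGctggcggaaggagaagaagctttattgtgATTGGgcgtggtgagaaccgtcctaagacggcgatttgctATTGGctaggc
Ncapg: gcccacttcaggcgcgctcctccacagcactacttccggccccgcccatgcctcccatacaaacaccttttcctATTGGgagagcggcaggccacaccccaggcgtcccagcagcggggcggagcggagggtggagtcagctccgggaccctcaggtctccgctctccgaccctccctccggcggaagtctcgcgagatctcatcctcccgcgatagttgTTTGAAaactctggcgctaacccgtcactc
Smc3: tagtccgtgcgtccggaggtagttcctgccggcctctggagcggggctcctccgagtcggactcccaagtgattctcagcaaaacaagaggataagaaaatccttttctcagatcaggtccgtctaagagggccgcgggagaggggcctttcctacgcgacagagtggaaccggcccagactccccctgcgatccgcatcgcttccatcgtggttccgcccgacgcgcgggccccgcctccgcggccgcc
In Cdca8 the CCAAT boxes lie 85 to 81, 51 to 47 and 11 to 7 bases before the start. In Ncapg the CCAAT box lies 176 to 172 bases before the start and TTTGAA 30 to 25 bases before it. Smc3, the gene without these letters, had 167.4 ± 9.17 CPM in the cKO and 172.0 ± 5.74 CPM in the controls.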

How the data were processed

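RNA was measured in 8 libraries, each taken as 1 biological replicate, 4 per group as the labels give them. The study takes the single animal or embryo as its unit unless stated otherwise, and p-values measure the spread between these libraries. Per the labels and the submitters' processing notes, poly(A) RNA was read as 150 bp pairs and processed with Trim Galore 0.6.7, HISAT2 2.2.1, StringTie 2.2.1, featureCounts and DESeq2, with GRCm39 named as the genome. The strand setting of the counting is not given in the sources used here. The deposited count table holds whole, unnormalized read counts for each symbol, and a second deposited table holds TPM, which the authors scaled for transcript length and depth. Positions in the TPM table are on GRCm38 (of 37922 genes, 85.75% have a start within 1000 bases of GRCm38 and 3.26% within 1000 of GRCm39). All columns of both tables were used.

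The 26820 genes whose counts summed to 8 or more entered edgeR 4.0.16 in R 4.3.3, with TMM scaling, condition as the only term and the quasi-likelihood test, and p-values were adjusted over all of them (Benjamini-Hochberg). A gene was called at an adjusted p of at most 0.05. The SE is the log2 fold change divided by the root of F, and 95% intervals use the t distribution of the fit. CPM use TMM-scaled library sizes, and the level of a gene group is its mean log2 CPM (prior count 2) minus the control mean. Libraries held 47559845 to 56660938 counts, and counting error is part of the spread between libraries. Alternatives were DESeq2 1.42.0, limma-voom (limma 3.58.1), DESeq2 size factors, filterByExpr, no filter, a replicate block, limma on log2(TPM + 1) and log2(TPM + 0.1), Xist as a covariate, hemoglobin genes left out, a length trend removed (loess span 0.3), and each library left out in turn. The code was tested on simulated counts.

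The 32 genes, the complexes, the 2 classes and the marker lists were chosen with earlier results of these data known, so no test over a list was made. All 32 were reported. Of the 24 further genes, those called were to be named, or otherwise the 2 with the lowest p, with Pkn2 as the check of the labels. The proteome and phosphoproteome were not analysed here.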

Additional observations from a re-analysis of the deposited data

Results flagged for a closer look

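In 4 of the 84 groups of 4 libraries examined (32 genes and 10 group levels in each genotype), the highest or lowest library stood far from the other 3. The gap to its nearest neighbour was above Dixon's critical share of the group's range, a limit that chance passes in about 1 of 20 groups. Of these readings 3 came from the fourth cKO library, each the lowest of its group: Stag2, a cohesin subunit, at 142.1 CPM where the other cKO libraries had 151.5 to 152.9 CPM, Pds5b, a cohesin regulator, at 101.6 CPM where the others had 110.4 to 111.8 CPM, and Kif22, a chromokinesin, at 78.4 CPM where the others had 91.6 to 93.7 CPM. The other was Top2a in the fourth control library, at 635.7 CPM where the other controls had 583.3 to 588.9 CPM.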

How the results depend on the processing

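None of the 32 genes was called under any of the 20 alternatives to the edgeR fit, and the smallest adjusted p ranged from 0.0761 (Rad21, DESeq2) to 0.489 (Cdca8, limma on log2(TPM + 0.1)). The number of all genes called was 230 and depended strongly on the method: 867 with DESeq2, 700 with no filter on counts, 6 with limma on log2(TPM + 0.1) and 0 with limma on log2(TPM + 1), where 3065 genes still had an unadjusted p under 0.05. With the replicate number as a replicate block it was 380, and 414 with the replicate block and the length trend removed. Whether same-numbered libraries belong together is not stated. Their deviations from the group means correlated at −0.19, −0.03, 0.01 and −0.14 over 14302 genes. These values gave no sign of a pairing by number but cannot exclude it. The block called none of the 32 genes (smallest adjusted p 0.0865, Esco2, edgeR). Leaving out a library gave 67 to 744 calls: 67, 135, 87 and 69 without control replicate 1, 2, 3 and 4, 71 without cKO replicate 1 and 744 without cKO replicate 3. The cause was not tested.

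The direction held for 19 of the 32 genes in every alternative, and 25 of 640 values changed sign, all close to 0. With log2(TPM + 1) and log2(TPM + 0.1), Ncapg2 was at 0.028 and 0.029, Top2a at 0.0058 in both and Top2b at 0.018 in both, and Pds5a was at −0.010 with the length trend removed, with and without the block. The other sign changes came from leaving out a library, which gave −0.11 to 0.016 for Smc2, −0.05 to 0.055 for Ncapg2, −0.016 to 0.08 for Smc1a, −0.06 to 0.0015 for Smc3, −0.0035 to 0.07 for Nipbl, −0.05 to 0.017 for Esco1, −0.06 to 0.021 for Top2a, −0.04 to 0.016 for Top2b, −0.0053 to 0.08 for Mki67, −0.13 to 0.00083 for Kif4, −0.0088 to 0.07 for Aurkb and −0.032 to 0.08 for Incenp. Esco2 ranged from −0.38 to −0.18, Rad21 from −0.19 to −0.13 and Cdca8 from −0.23 to −0.14 over the libraries left out. The median of the 32 genes was −0.013 to −0.061 over all settings.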
